A study of Mus musculus with 15 samples.

Results

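Dbp, Tef and Hlf encode the PAR bZIP transcription factors, named for a proline and acidic amino acid rich stretch beside their basic leucine zipper, and Nfil3 encodes E4BP4, a bZIP repressor. These 4 genes were followed here through 15 RNA sequencing libraries of mouse aorta, as 4 of the 34714 genes in the deposited table. They are a named list, chosen by their measured differences between the groups of these same libraries, above all AngII against Sham. Their own values are therefore given as a description. The fit over all tested genes covered them too, and nothing is read from its calls for them. All mice were wild type (WT). Sham mice were the controls, AngII mice were infused with the vasoconstrictor peptide angiotensin II to raise blood pressure (750 ng/kg/min), and AngII+E1 mice had the same infusion plus RvE1, the omega-3 derived mediator resolvin E1, given intraperitoneally (2 µg/kg/day). Each group had 5 libraries. Strain, age, length of infusion and time of day of tissue collection are not given in the labels, nor is it said whether each library came from a separate animal, so the spread between libraries may be partly technical.

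The PAR bZIP factors and E4BP4 bind the same DNA element, the D-box. The PAR bZIP factors activate transcription from it and E4BP4 represses it. In the circadian clock, the CLOCK and BMAL1 activators drive Dbp through E-boxes, and the REV-ERB repressors act on Nfil3, so that Dbp and Nfil3 messenger RNA peak at opposed times of day in tissues such as liver. Through the D-box both kinds of factor pass the rhythm on to Period genes and to metabolic genes.

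On the mm10 build (RefSeq annotation of GRCm38.p6), Dbp lies on chromosome 7 from 45705100 to 45710203 on the plus strand and Tef on chromosome 15 from 81802673 to 81826863 on the plus strand. Hlf lies on chromosome 11 from 90336535 to 90390917 and Nfil3 on chromosome 13 from 52967209 to 52982878, both on the minus strand. The promoter windows below, from RefSeq on GRCm38.p6, run from 250 bases before an annotated start to 50 bases after it. The Dbp window is shown because that gene differed most, the windows at both Tef starts because each held an E-box, and that of Nfil3 because this gene differed in the opposite direction. Capitals mark every match to a motif searched on both strands, namely the E-box CACGTG, its variant CACGTT, the D-boxes TTATGTAA and TTACGTAA, the relaxed D-box TTATNTAA, the nuclear receptor half-site AGGTCA, the cAMP response element TGACGTCA and TATAAA. TTATGTAA matches are also matches to TTATNTAA.

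Dbp, chr7:45704997-45705296, plus strand: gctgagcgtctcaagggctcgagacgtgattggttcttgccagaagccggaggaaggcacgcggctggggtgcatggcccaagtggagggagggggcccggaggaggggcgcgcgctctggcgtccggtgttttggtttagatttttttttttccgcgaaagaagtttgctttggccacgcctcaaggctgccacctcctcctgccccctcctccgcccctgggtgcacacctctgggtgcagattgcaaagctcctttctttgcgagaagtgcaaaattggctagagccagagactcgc
Tef, upstream start, chr15:81802423-81802722, plus strand: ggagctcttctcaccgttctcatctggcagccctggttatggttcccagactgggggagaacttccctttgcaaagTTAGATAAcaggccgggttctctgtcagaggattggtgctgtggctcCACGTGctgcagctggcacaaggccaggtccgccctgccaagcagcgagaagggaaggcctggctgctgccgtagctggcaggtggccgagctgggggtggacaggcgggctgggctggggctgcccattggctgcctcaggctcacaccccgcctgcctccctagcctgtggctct
Tef, downstream start, chr15:81811164-81811463, plus strand: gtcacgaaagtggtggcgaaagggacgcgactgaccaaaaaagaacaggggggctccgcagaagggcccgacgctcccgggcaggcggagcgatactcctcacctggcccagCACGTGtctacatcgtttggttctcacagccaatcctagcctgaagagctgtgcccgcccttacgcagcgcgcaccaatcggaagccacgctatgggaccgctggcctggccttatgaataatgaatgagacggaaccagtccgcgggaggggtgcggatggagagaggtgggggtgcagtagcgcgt
Nfil3, chr13:52980990-52981289, minus strand: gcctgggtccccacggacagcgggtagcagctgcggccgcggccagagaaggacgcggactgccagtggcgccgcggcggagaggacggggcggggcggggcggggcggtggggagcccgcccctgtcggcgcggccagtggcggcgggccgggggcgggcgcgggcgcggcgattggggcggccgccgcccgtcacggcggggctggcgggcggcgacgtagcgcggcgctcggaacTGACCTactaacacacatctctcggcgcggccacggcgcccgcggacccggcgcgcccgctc

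The Dbp and Nfil3 windows in the table belong to an annotated start inside the gene bounds given above, not to the outermost 5′ end, and positions are counted from that start. CACGTG stood at -127 from the upstream Tef start and at -138 from the downstream one (first base of the match), and 7.15% of the 32851 mouse promoter windows of this length held it. The upstream Tef window also held a relaxed D-box at -174, a motif of 3.51% of windows. The Nfil3 window held an AGGTCA half-site on its opposite strand at -12, with 16.3% of windows, and the Hlf window, not printed, held TGACGTCA at -9, with 1.79% of windows. The Dbp window held none of these letters. CACGTT was found in 4.68% of all windows, TTATGTAA in 0.938%, TTACGTAA in 0.119% and TATAAA in 13.6%, and in no window of the 4 genes. G and C made up 81.7% of the Nfil3 window against 60.3% for Dbp, 64.0% and 62.0% for Tef, 67.3% for Hlf and a median of 52.7% over all windows. These matches are letters in a window and not sites shown to be bound.

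The values were taken as FPKM, an assumed scale that adjusts for gene length and library depth. Dbp, the PAR bZIP gene with the widest daily swing in many tissues, was near 4 in Sham and above 30 in every infused library. Its FPKM was 6.68, 3.85, 3.83, 2.18 and 4.02 in Sham libraries 1 to 5, 85.5, 107, 47.3, 110 and 48.2 in AngII libraries 1 to 5, and 43.5, 34.2, 51.6, 74.9 and 86.5 in AngII+E1 libraries 1 to 5. The lowest infused library, at 34.2, stood above the highest Sham library, at 6.68, while AngII and AngII+E1 overlapped over most of their range. Group means were 4.11 ± 1.62 in Sham, 79.7 ± 30.7 in AngII and 58.1 ± 21.9 in AngII+E1 (SD, n = 5 each). On the log2(FPKM + 1) scale AngII exceeded Sham by 3.94 (SE 0.31) and AngII+E1 exceeded Sham by 3.51 (SE 0.31), and these differences ranked 1 and 2 from the top among the 12603 genes tested. Ordered by group mean among those genes, Dbp held place 8347 in Sham, 821 in AngII and 1142 in AngII+E1. The last 741 bases of Dbp overlap Sphk2, a sphingosine kinase gene on the opposite strand, and whether reads were counted by strand is not given in the sources used here. Sphk2 itself stayed between 8.60 and 18.3 FPKM over the 15 libraries.

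Tef, which encodes thyrotroph embryonic factor and swings less over the day than Dbp, was higher in infused aortas by a smaller factor. Its FPKM was 16.5, 21.5, 18.8, 17.8 and 20.2 in Sham libraries 1 to 5, 60.4, 66.6, 36.2, 59.3 and 40.0 in AngII libraries 1 to 5, and 34.4, 35.3, 32.3, 42.4 and 48.1 in AngII+E1 libraries 1 to 5. The lowest infused value, 32.3, lay above the highest Sham value, 21.5, and the infused groups overlapped between 36.2 and 48.1. Means were 19.0 ± 1.96, 52.5 ± 13.5 and 38.5 ± 6.58 FPKM (SD, n = 5 each) in Sham, AngII and AngII+E1. The log2 differences from Sham were 1.39 in AngII and 0.97 in AngII+E1 (SE 0.17 each), at places 292 and 136 from the top of all tested genes.

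Hlf, hepatic leukemia factor, had the lowest Sham mean of the 3 PAR bZIP genes, and it did not separate the groups. Its FPKM was 2.96, 4.93, 4.06, 3.65 and 2.94 in Sham libraries 1 to 5, 9.23, 9.42, 2.30, 7.51 and 3.78 in AngII libraries 1 to 5, and 4.09, 4.17, 4.67, 5.06 and 4.08 in AngII+E1 libraries 1 to 5. AngII held both the highest 3 and the lowest value of the 15 libraries, and the AngII+E1 values lay close together (coefficient of variation 9.89%, against 50.3% in AngII and 22.4% in Sham). Means were 3.71 ± 0.832 in Sham, 6.45 ± 3.24 in AngII and 4.41 ± 0.437 FPKM in AngII+E1 (SD, n = 5 each). The log2 difference of AngII from Sham was 0.54 (SE 0.27, 95% interval -0.03 to 1.11). It was 1.15 with AngII libraries 3, 4 and 5 left out, those high in lymphocyte markers (below). This leaves AngII libraries 1 and 2, which hold the highest Hlf values of all, 9.23 and 9.42 FPKM. That of AngII+E1 from Sham was 0.21 (SE 0.27, interval -0.35 to 0.78).

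Nfil3, the gene of the D-box repressor, ran the other way. Its FPKM was 40.7, 20.4, 29.1, 18.4 and 28.2 in Sham libraries 1 to 5, 9.15, 9.83, 5.09, 3.17 and 4.97 in AngII libraries 1 to 5, and 3.82, 14.9, 3.73, 8.99 and 5.94 in AngII+E1 libraries 1 to 5. Every infused library, up to 14.9, was below every Sham library, from 18.4 up. Means were 27.4 ± 8.82, 6.44 ± 2.89 and 7.48 ± 4.68 FPKM (SD, n = 5 each) in Sham, AngII and AngII+E1. The log2 differences from Sham were -1.97 in AngII and -1.85 in AngII+E1 (SE 0.35 each), at places 9 and 3 from the bottom of all tested genes. Among the tested genes ordered by group mean, Nfil3 went from place 2304 in Sham to 7398 in AngII and 6224 in AngII+E1. In a bulk tissue, fewer cells of a type that expresses a gene and less of its RNA per cell cannot be told apart.

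**Figure D1:**
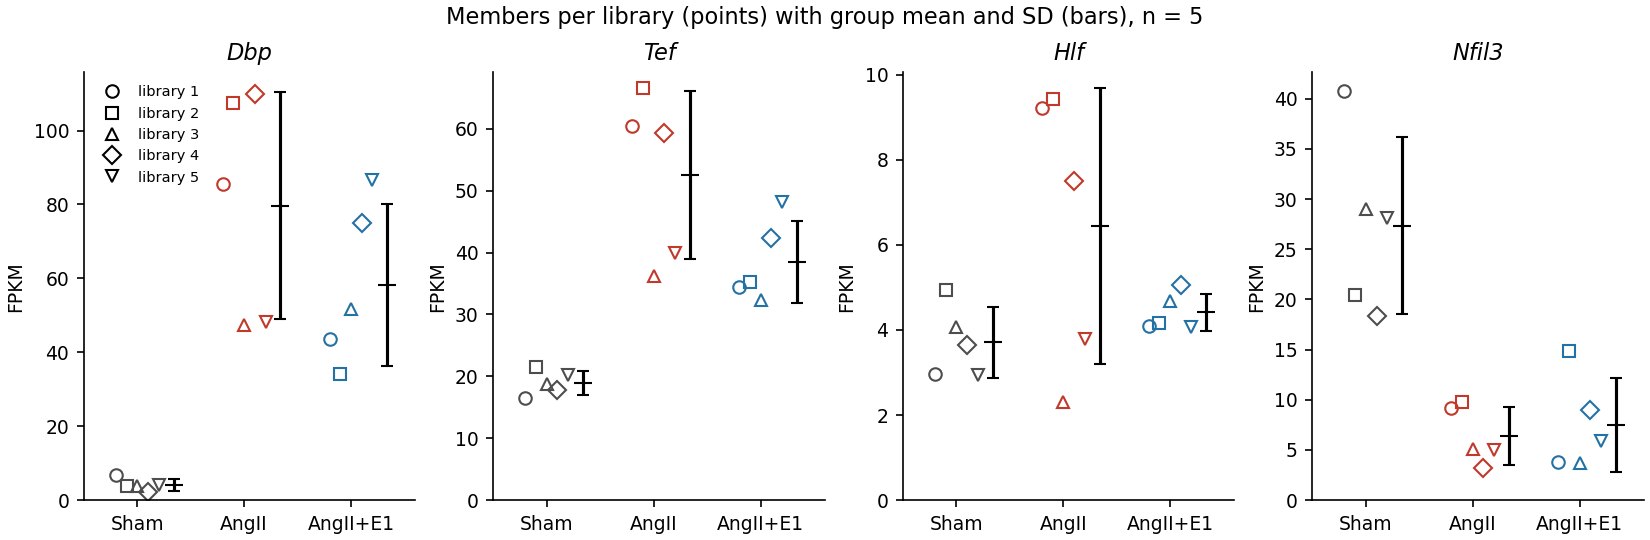
Level of each gene (vertical axes, FPKM, each with its own scale from 0) in the 5 libraries of Sham, AngII and AngII+E1 (horizontal axis); marker shapes give the library number, and the bar beside each group is the mean with its SD. Dbp and Tef lie higher and Nfil3 lower in all 10 infused libraries than in the 5 Sham libraries, while Hlf overlaps across groups.

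In the limma fit over all 12603 genes, 3 of the 4 genes passed an adjusted p of 0.05 in AngII against Sham (Dbp and Tef higher, Nfil3 lower), where 3.17% of all tested genes passed (2.36% higher, 0.809% lower, and 26.2% at an unadjusted p under 0.05). In AngII+E1 against Sham 1 of the 4 passed, Dbp, where 0.0238% or 3 genes passed (0.0159% higher, 0.00793% lower, and 6.69% at an unadjusted p under 0.05). All 5 infused libraries lay above all 5 Sham libraries for Dbp and Tef in both comparisons, as they did for 2.92% of tested genes in AngII and 0.825% in AngII+E1. They lay below for Nfil3, as for 0.778% and 0.262%. Since the genes were chosen with these differences known, nothing is read from these counts, and both comparisons share the Sham libraries.

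Between the infused groups, 0 of the 4 genes passed in limma and 1, Tef, had an unadjusted p under 0.05, where 8.52% of all tested genes passed (4.21% higher, 4.31% lower, and 29% at an unadjusted p under 0.05). The log2 differences of AngII+E1 from AngII were -0.43 for Dbp (SE 0.31, 95% interval -1.09 to 0.22), -0.41 for Tef (SE 0.17, -0.78 to -0.05), -0.33 for Hlf (SE 0.27, -0.90 to 0.24) and 0.12 for Nfil3 (SE 0.35, -0.62 to 0.86). All 4 genes overlapped between these groups, where 5.87% of tested genes had all AngII+E1 libraries above and 5.23% below all AngII libraries. The intervals hold differences of about 1 on the log2 scale for Dbp, so they do not show that RvE1 left the gene at the same level. The Nfil3 value turned to -0.15 without AngII+E1 library 2, to -0.07 without AngII library 4 and to -0.47 without AngII libraries 3, 4 and 5. With those 3 libraries left out, the differences were -0.79 for Dbp, -0.72 for Tef and -0.93 for Hlf.

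The makeup of the group also shifted. The deposited table names no unit, and FPKM was assumed. As FPKM adjusts for length, levels of the 4 genes are set side by side on that assumption. In Sham, Nfil3 had the highest mean, followed by Tef, Dbp and Hlf; Nfil3 and Tef overlapped between 18.4 and 21.5 FPKM, and Dbp and Hlf overlapped as well. In AngII, Dbp came first and Tef second, with overlapping libraries, and Hlf and Nfil3 had almost equal means of 6.45 and 6.44 FPKM. AngII+E1 had the order Dbp, Tef, Nfil3, Hlf, again with overlap between Dbp and Tef and between Nfil3 and Hlf. Dbp made up 15.3% ± 6.10 of the summed FPKM of Dbp, Tef and Hlf in Sham, 56.7% ± 3.77 in AngII and 56.3% ± 6.57 in AngII+E1 (SD, n = 5 each), and Tef 70.9% ± 4.78, 38.9% ± 4.09 and 39.1% ± 5.74. The sum itself was 26.8 ± 2.39, 139 ± 46.7 and 101 ± 28.0 FPKM.

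The ratio of Dbp to Nfil3 FPKM, activator over repressor on the D-box, was 0.164, 0.188, 0.132, 0.119 and 0.143 in Sham libraries 1 to 5. It was 9.35, 10.9, 9.28, 34.7 and 9.71 in AngII libraries 1 to 5, and 11.4, 2.29, 13.8, 8.33 and 14.6 in AngII+E1 libraries 1 to 5. No infused library came near the Sham range, and 4 of the 5 AngII libraries lay between 9.28 and 10.9. AngII library 4 combined the highest Dbp with the lowest Nfil3 of all 15 libraries, and AngII+E1 library 2 combined the lowest Dbp with the highest Nfil3 of the infused ones. These ratios are of RNA levels and do not measure protein or binding.

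**Figure D2:**
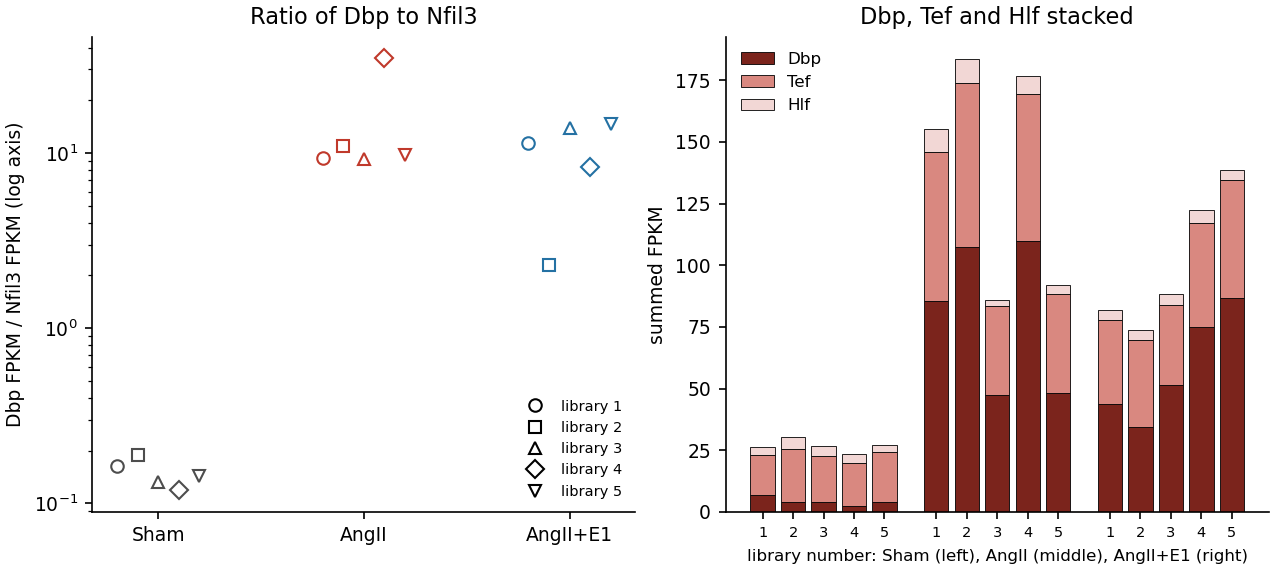
Left, ratio of Dbp to Nfil3 FPKM in each library (log axis) by group, with marker shapes for the library number; right, stacked bars of Dbp, Tef and Hlf FPKM in each library, with Sham, AngII and AngII+E1 from left to right. Sham ratios lie between 0.119 and 0.188 and infused ratios between 2.29 and 34.7, and Dbp is the smaller part of the stack beside Tef in all Sham libraries.

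Within AngII the 3 PAR bZIP genes varied together. AngII libraries 1, 2 and 4 had the higher values of Dbp, Tef and Hlf, and AngII libraries 3 and 5 the lower values of each. Taking every library's deviation from its group mean on the log2 scale, Tef correlated with Hlf at r = 0.81 and with Dbp at r = 0.71, and Dbp with Hlf at r = 0.52, over 15 libraries. Ordered by this r among 12602 genes, Hlf held place 5 and Dbp place 28 for Tef. Tef held place 89 and Hlf 694 for Dbp, and Tef held place 98 and Dbp 1496 for Hlf. AngII held the widest deviations of Tef and Hlf. In Sham library 1, by contrast, Dbp lay 0.64 above its group mean, Tef at -0.18 and Hlf at -0.23, and in AngII+E1 the deviations of Hlf spanned only -0.09 to 0.17. Dbp and Tef deviated to the same side in 13 of 15 libraries, Tef and Hlf in 11, and Dbp and Hlf in 9. Nfil3 deviated to the same side as Dbp in 11 of 15 libraries and as Tef and Hlf in 9 each, with r = 0.17 for Dbp, 0.21 for Tef and 0.16 for Hlf. Over the undivided 15 libraries, where the differences between groups enter, Nfil3 gave r = -0.81 with Dbp and -0.73 with Tef. The points of each correlation come from the same libraries and share their depth and cell makeup.

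**Figure D3:**
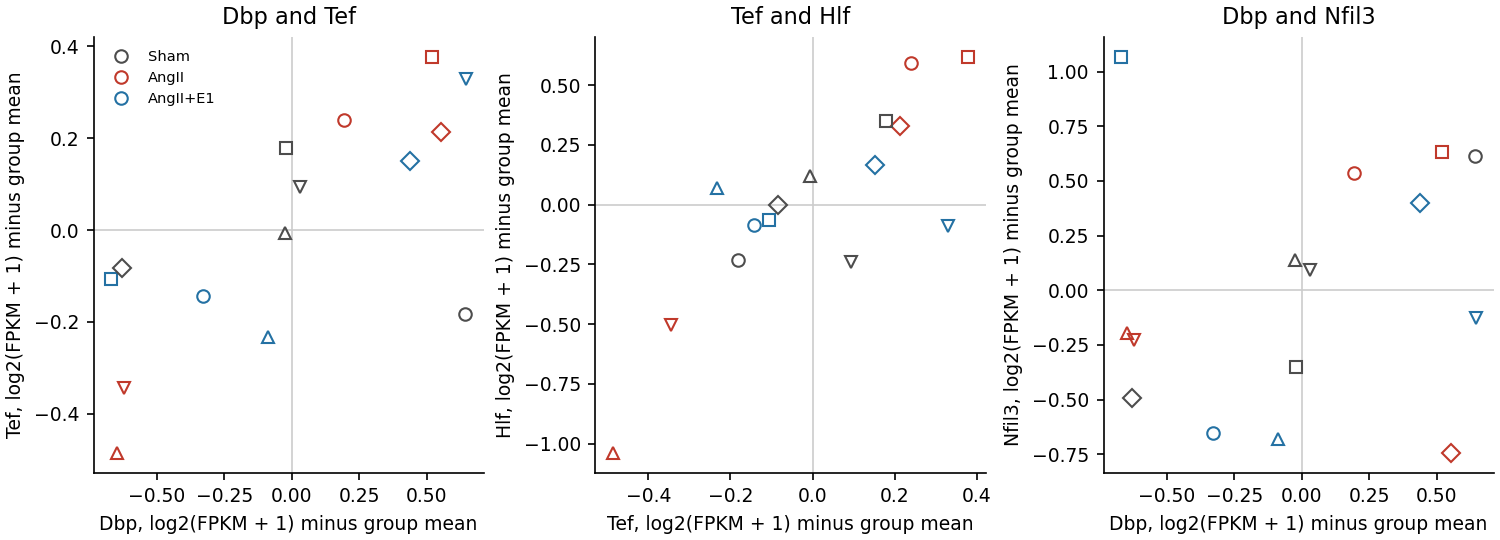
Deviation of each library from its group mean in log2(FPKM + 1) for Dbp and Tef, Tef and Hlf, and Dbp and Nfil3 (each axis 1 gene; colours give the group, marker shapes the library number as in the plot of levels; grey lines mark 0). Over all libraries r is 0.71 for Dbp and Tef, 0.17 for Dbp and Nfil3, and 0.81 for Tef and Hlf, where AngII points lie at both ends of the diagonal.

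The tissue makeup of these libraries varied as well. Smooth muscle genes were present in every library, with a list mean of log2(FPKM + 1) over 12 markers between 5.48 and 8.0 (Sham), 5.08 and 6.45 (AngII), and 6.98 and 7.75 (AngII+E1). Fat cell genes were present too, over 9 markers, from 7.81 to 8.72 (Sham), 8.60 to 9.12 (AngII) and 7.67 to 8.57 (AngII+E1). Brown fat marker means (7 markers) spanned 6.20 to 8.09 (Sham), 4.98 to 7.67 (AngII) and 6.36 to 7.34 (AngII+E1). Those of cardiac muscle (7 markers) spanned 1.46 to 7.12, 0.89 to 8.45 and 1.01 to 7.51 in the same order. The 12 tested lymphocyte markers had a mean of 5.28 in AngII library 3, 4.03 in library 4 and 5.87 in library 5. The mean was 1.03 and 0.70 in the other two AngII libraries, at most 2.55 in Sham and at most 1.02 in AngII+E1. Summed over the whole list of 15 markers, this was 312 to 1390 FPKM in those 3 libraries and 5.32 to 79.7 in the other 12. AngII libraries 3 and 5, low in Dbp, Tef and Hlf within their group, had the highest lymphocyte means of AngII and its lowest smooth muscle and brown fat means. AngII library 4, also high in lymphocyte markers, was not low in these genes, with Dbp at 110, Tef at 59.3 and Hlf at 7.51 FPKM. The part of cell makeup in the levels of the 4 genes was not tested. Without AngII libraries 3, 4 and 5 the differences of AngII from Sham were 4.30 for Dbp, 1.70 for Tef and -1.38 for Nfil3, against 3.94, 1.39 and -1.97 with all libraries. Macrophage marker means (11 markers) spanned 3.23 to 3.54 (Sham), 3.44 to 5.83 (AngII) and 3.29 to 3.56 (AngII+E1), with 5 of 11 called higher in AngII against Sham and 8 of 11 called lower in AngII+E1 against AngII by limma. Over all tested genes these shares were 2.36% and 4.31%. Of the 12 smooth muscle markers, 3 were called lower in AngII against Sham and 10 higher in AngII+E1 against AngII, where 0.809% and 4.21% of all tested genes were. Red cell marker means (5 markers) spanned 8.97 to 10.8 (Sham), 9.49 to 11.99 (AngII) and 11.3 to 12.8 (AngII+E1), and each of the 5 was higher in all AngII+E1 libraries than in all Sham libraries, with 0 called by limma and 5 at an unadjusted p under 0.05. Of all tested genes, 0.825% were higher in all AngII+E1 than in all Sham libraries and 6.69% had an unadjusted p under 0.05 there. Lymphocyte means in AngII+E1, from 0.72 to 1.02, lay within the Sham range of 0.43 to 2.55.

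In AngII against Sham, 2.36% of all tested genes were called higher and 0.809% lower. Genes with D-boxes in the clock itself, a list of 8 of which 7 were tested, had 3 higher and 0 lower members in AngII than in Sham, with a median log2 difference of 0.53 against 0.11 over all tested genes. Of these, Per3, a Period gene, went up from 2.40 ± 0.702 to 10.01 ± 2.55 FPKM (mean ± SD, n = 5), or by 1.69 in log2 (SE 0.19), with an adjusted p of 0.000516 in limma. Nr1d2 and Nr1d1, the REV-ERB beta and alpha genes, rose by 1.36 and 1.65 (limma adjusted p = 0.00249 and 0.00480). Per1 and Per2 differed by 0.53 (SE 0.41) and 0.44 (SE 0.36) and did not pass; they are named as the other Period genes, after their values were seen. The 12 E-box output genes of the clock, which include the Period and REV-ERB genes again, had 6 higher and 0 lower members and a median of 0.76. Among them Ciart, a clock repressor gene, rose by 1.75 and Bhlhe41, which encodes the E-box repressor DEC2, by 1.19 (limma adjusted p = 0.00132 and 0.00227). Of the 5 tested genes with REV-ERB and ROR elements, the class to which Nfil3 belongs, 3 fell and 0 rose, with a median of -0.56. Npas2 fell by 2.06, Arntl (BMAL1) by 1.61 and Clock by 0.56 in log2 units (adjusted p in limma 0.00132, 0.00249 and 0.0335). Clock lost its call in 11 of 22 alternative settings, among them the fits without Sham library 2, 4 or 5 or AngII library 3, 4 or 5, and Nr1d1 lost its call without AngII libraries 3, 4 and 5 together. Per3, Nr1d2, Ciart, Bhlhe41, Npas2 and Arntl kept their calls in all 22. As the labels give no time of day of collection, a difference in that time between groups cannot be told apart from the infusion. The same holds for the 4 members.

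In AngII+E1 against Sham, 3 genes passed in all. Beside Dbp they were Nr1d1, which rose from 29.7 ± 13.3 to 94.3 ± 18.0 FPKM (log2 difference 1.71, SE 0.25), and Cry1, a cryptochrome gene with both a D-box and ROR elements, which fell from 4.39 ± 0.657 to 1.62 ± 0.462 FPKM (-1.05, SE 0.16; SD, n = 5, limma adjusted p = 0.0365 for both). Both calls were lost with the replicate number as a block (adjusted p = 0.148 for Nr1d1 and 0.131 for Cry1), and Nr1d1 lost its call in 13 and Cry1 in 14 of 22 settings, each of them without AngII library 2 or any 1 of AngII+E1 libraries 1, 3, 4 and 5, Nr1d1 also without Sham library 1, 2, 3 or 4, and Cry1 also without Sham library 2, 3, 4 or 5 or AngII library 4. Per3 and Nr1d2 differed from Sham by 1.13 and 1.08 (limma adjusted p = 0.0741 and 0.0881) and did not pass. In the D-box list (7 tested) 1 member was higher and 1 lower. The E-box list (12 tested) had 1 and 0, and the ROR list (5 tested) 0 and 1. These calls are Nr1d1 and Cry1 again, each counted in more than 1 list. Over all tested genes 0.0159% were called higher and 0.00793% lower.

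Between AngII+E1 and AngII, 4 genes of the clock lists passed. Ciart went down from 5.60 ± 2.12 to 1.84 ± 0.411 FPKM (-1.16 in log2, SE 0.22, adjusted p in limma 0.0148) and Npas2 rose from 0.561 ± 0.222 to 3.01 ± 1.10 FPKM (1.33, SE 0.26, adjusted p = 0.0159). Cry1 fell by 0.65 and Usp2, a deubiquitinase gene under clock control, by 1.04 (adjusted p = 0.0278 and 0.0380). In the D-box list 0 members were higher and 1 lower, with a median of -0.28 against -0.11 over all tested genes, in the E-box list 0 and 2 (median -0.43), and in the ROR list 1 and 1 (median 0.16). That is 1 of 7, 2 of 12 and 2 of 5 tested genes, where 8.52% of all tested genes passed. None of the 3 lists had a called gene other than Usp2 without AngII libraries 3, 4 and 5. Npas2 was also lost without AngII library 5, Cry1 without AngII library 3 or 5 or AngII+E1 library 1, 3, 4 or 5, and Usp2 without AngII library 1, 4 or 5 or AngII+E1 library 1, 3, 4 or 5. Usp2 lost its call in 11 of 22 settings, which also include the replicate block, no filter, only the groups compared and rescaling by the median ratio.

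**Figure D4:**
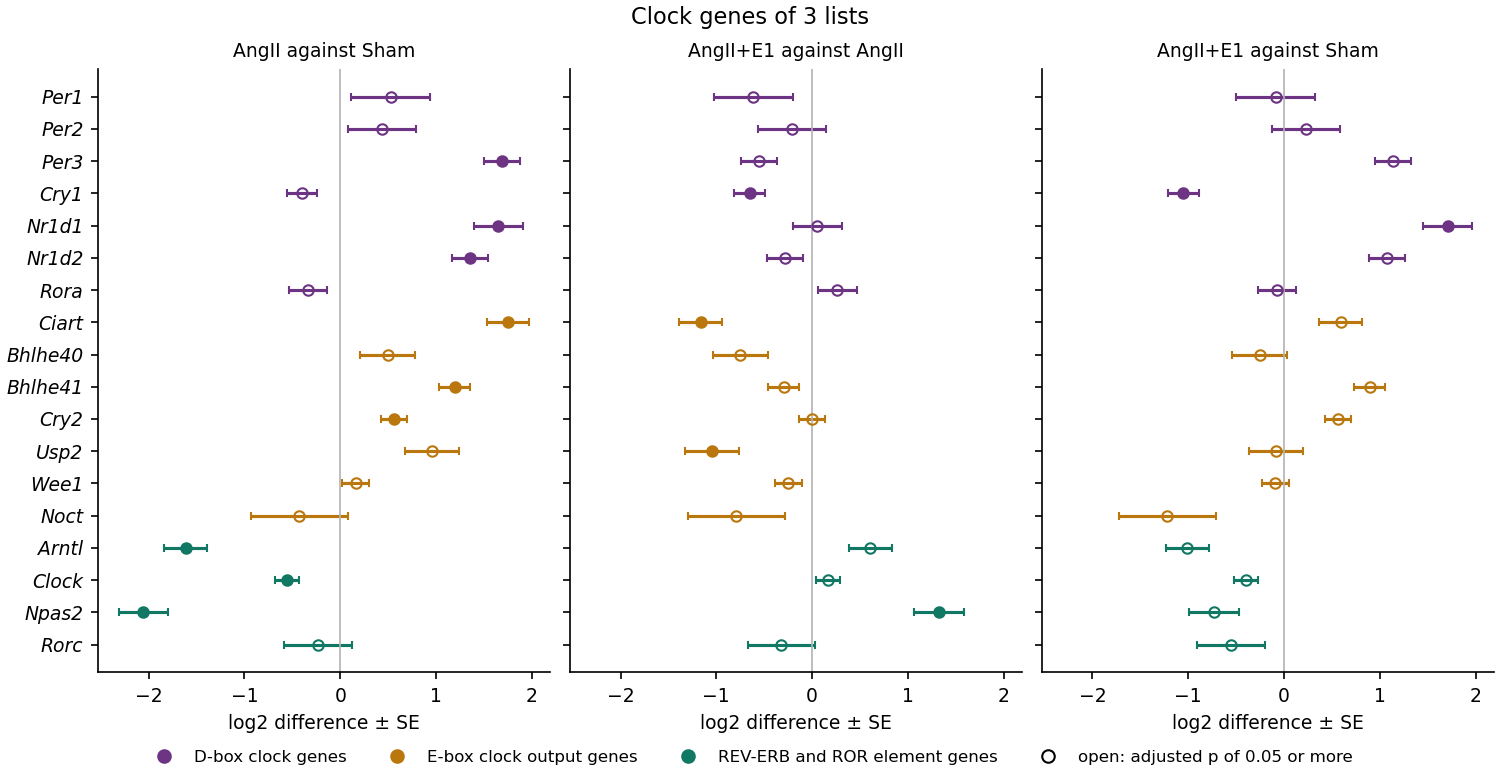
Log2 difference with its SE (horizontal axes) for tested genes of 3 clock lists (rows; colours give the list, a gene of 2 lists is drawn once) in the 3 comparisons; filled points passed an adjusted p of 0.05 in limma. Per3, Nr1d1, Nr1d2, Ciart, Bhlhe41 and Cry2 are filled on the higher side and Arntl, Clock and Npas2 on the lower side in AngII against Sham, and Nr1d1 and Cry1 are the filled genes in AngII+E1 against Sham.

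A further list held genes known from liver, kidney and brain as PAR bZIP targets in metabolism. Of 22 listed, 10 passed the filter on low values, and limma called 0 of these in AngII against Sham, with 3 at an unadjusted p under 0.05 and a median log2 difference of 0.20. Over all tested genes 3.17% were called, 26.2% had an unadjusted p under 0.05 and the median was 0.11, so these counts are near the background. Por, the electron donor of cytochrome P450 enzymes, was 82.5 ± 8.91 FPKM in Sham, 112 ± 20.8 in AngII and 80.9 ± 17.5 in AngII+E1 (AngII against Sham 0.42, SE 0.16, limma adjusted p = 0.119). Pdxk, the pyridoxal kinase gene, was 7.63 ± 1.27, 8.77 ± 0.367 and 7.07 ± 1.25 (0.19, SE 0.12, adjusted p = 0.333). Por and Pdxk are named as well known targets and were picked after their values were seen. In AngII+E1 against AngII, 2 of the 10 fell and 0 rose, where 8.52% of all tested genes passed: Acot1 and Acot4, acyl-CoA thioesterase genes, by 0.94 and 0.87 in log2 units (adjusted p in limma 0.0293 and 0.0177). Both lost their calls without AngII+E1 library 1, 4 or 5 and without AngII libraries 3, 4 and 5, and Acot1 also without AngII library 4 or 5, with no filter and with the replicate block. In AngII+E1 against AngII, 5 of the 10 had an unadjusted p under 0.05 in limma, against 29% of all tested genes. The median log2 difference of the 10 there was -0.48, against -0.11 over all tested genes. In AngII+E1 against Sham limma called 0 of the 10, with 0 at an unadjusted p under 0.05. Over all tested genes 0.0238% were called there and 6.69% had such a p.

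Of 11 genes of the immune program in which Nfil3 acts in lymphoid cells, 2 passed the filter, Id2 and Tcf7, and limma called 0 of them in any of the 3 comparisons, with 2 at an unadjusted p under 0.05 in AngII+E1 against AngII and 0 in each of the others. Over all tested genes 29% had such a p in AngII+E1 against AngII, 26.2% in AngII against Sham and 6.69% in AngII+E1 against Sham. Tcf7 was 2.05 ± 1.83, 11.5 ± 13.3 and 0.559 ± 0.615 FPKM in Sham, AngII and AngII+E1 (SD, n = 5 each), a spread in AngII as wide as its mean. Of the C/EBP genes, which encode the nearest bZIP relatives, 5 were tested and 0 called by limma in either comparison with Sham, with 1 at an unadjusted p under 0.05 in each. Cebpg fell by 0.44 in AngII+E1 against AngII (SE 0.11, limma adjusted p = 0.0308), the 1 called gene of the 5, where 8.52% of all tested genes passed. This call was lost with the replicate block, after rescaling by the median ratio, without AngII library 5, without AngII libraries 3, 4 and 5 and without AngII+E1 library 1, 3, 4 or 5.

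The genes with patterns most like those of the members over the 15 libraries, by Pearson's r of log2(FPKM + 1), were for Dbp Bhlhe41 (r = 0.95), Tef (0.94), Nr1d2 (0.92), Per3 (0.91) and Mtmr14 (0.88). The most opposite to Dbp were Cyp51 (-0.90), a sterol synthesis enzyme, Arntl (-0.90), Sntb1 (-0.87), Leo1 (-0.84) and Clock (-0.83). Tef had the same 5 in its own list with Dbp in its place, led by Per3 (0.98), and was most opposite to Arntl (-0.94), Cyp51 (-0.88), Npas2 (-0.83), Leo1 (-0.83) and Sntb1 (-0.82). Hlf stood with other genes: Slc27a2 (0.89), a fatty acid transporter and very long chain acyl-CoA synthetase, Ppm1a (0.87), Slc25a33 (0.87), Prox2 (0.86) and Etfbkmt (0.85), against Mtap (-0.91), Pfkfb4 (-0.88), Dennd10 (-0.85), Med27 (-0.85) and Spata5 (-0.83). Nfil3 was most like Spry4 (0.84), an inhibitor of receptor tyrosine kinase signalling, Dnajb4 (0.83), Cdkn1a (0.80), the p21 cell cycle inhibitor gene, Bysl (0.80) and Gfod1 (0.80), and most opposite to Hdac3 (-0.90), Pik3ip1 (-0.86), Mrnip (-0.85), Tfap4 (-0.85) and Bhlhe41 (-0.85). These correlations hold the differences between groups and are descriptions.

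With group means removed, the order changed for Dbp and held in part for Tef. Per3 remained the gene most like Tef (r = 0.85), followed by Car11 (0.83), Rhpn2 (0.82), Hlf (0.81) and Med9os (0.80). For Dbp the top genes became Nenf (0.86), Arl3 (0.86), Ddit3 (0.85), Kazald1 (0.84) and Tmed1 (0.83). For Nfil3 they included Spry4 (0.87), Amotl2 (0.86), Irs2 (0.84), which encodes an insulin receptor substrate, and Atf3 (0.84), a stress-induced bZIP gene. Hlf was most like Grb14 (0.93), St6galnac6 (0.93), Ppm1a (0.91), Trim16 (0.91) and Rbpms2 (0.89). The most opposite genes within groups were Psme3 for Dbp (-0.91), Pgap6 for Tef (-0.91), M6pr for Hlf (-0.96) and Rnf135 for Nfil3 (-0.84).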

How the data were processed

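The deposited table gave 1 value per gene and library and names no unit; the values were treated as FPKM made by the authors, which was assumed. Over 2920 genes with a value in at most 5 libraries, the smallest value above 0 fell with transcript length (Spearman's rho -0.463, across genes). Per the submitters' processing notes the build was mm10; the sources used here name no aligner, quantifier or annotation. Column sums ran from 385846 to 514281, with 11466 to 12996 genes at 1 or more. As read depth is unknown, counting error is not given. Columns were matched to libraries by name; 0 other columns of sample values were found. Every one of the 34714 symbols matched RefSeq (GRCm38.p6), and all 4 members have a promoter window there.

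Genes with at least 1 FPKM in at least 5 libraries (12603, all 4 members among them) were transformed as log2(FPKM + 1), which pulls differences of low genes toward 0. limma-trend (limma 3.58.1, R 4.3.3) was run on the 15 libraries together with a mean for each group, two-sided, with Benjamini-Hochberg adjustment over all genes and a threshold of 0.05. The procedure was tested on simulated data. The members and all gene lists were chosen with earlier results of these data known, so their counts are not independent evidence; no list test was run, and lists share members. Named are the 4 members, up to 4 called genes per clock, target and relative list and comparison by adjusted p, and the 5 genes most and least like each member by Pearson's r, leaving out unnamed symbols and receptor segments; within groups, 1 opposite gene each is given, and 1 gene is not reported here. Alternatives were an added value of 0.1, no filter, only the groups compared, a replicate block, 2 rescalings and libraries left out.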

Additional observations from a re-analysis of the deposited data

Results flagged for a closer look

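In AngII library 4 the ratio of Dbp to Nfil3 FPKM was 34.7, far from the 9.28 to 10.9 of the other 4 AngII libraries. The ratio of the summed Dbp, Tef and Hlf FPKM to Nfil3 in the same library was 55.8, against 16.8 to 18.7 in the others. In each case the gap to the nearest library, over the whole range of the group on the log2 scale, was above Dixon's 95% critical value for 5 samples. The values share their Nfil3 level of 3.17 FPKM, the lowest of the 15 libraries. Of 7 quantities in 3 groups, chance marks about 1 in 20 groups. None of the 4 genes alone was marked in any group.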

How the results depend on the processing

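Over 22 alternative settings the log2 differences of Dbp, Tef and Nfil3 from Sham, and of Hlf, kept their direction in both infused groups. Some of these settings cannot change a member's difference, so its direction was fixed there. They are no filter, only the groups compared, the replicate block, and leaving out libraries of a group not compared. With AngII libraries 3, 4 and 5 left out, AngII kept only libraries 1 and 2. AngII against Sham then gave 1.70 for Tef and 1.15 for Hlf. AngII+E1 against AngII gave -0.72 for Tef, -0.93 for Hlf and -0.47 for Nfil3, the last with its sign turned, and the cause was not tested. Nfil3 in AngII+E1 against AngII ran from -0.15 to 0.29 when 1 library was dropped. The number of genes called was 400 in AngII against Sham, 1074 in AngII+E1 against AngII and 3 in AngII+E1 against Sham. It became 151, 405 and 1 with no filter, where more genes are adjusted for, and 84, 707 and 1 after rescaling to a sum of 1000000. Fitting only the groups compared gave 37 and 1 for the comparisons with Sham, and leaving out AngII libraries 3, 4 and 5 gave 22, 6 and 5. Leaving out 1 library at a time, these counts ran from 76 (without AngII library 4) to 1719 (without AngII library 2), from 98 (without AngII library 5) to 2035 (without AngII library 2), and from 1 (as without Sham library 2) to 8 (without AngII+E1 library 2). The first count moved by over 1.5 times without Sham library 2, 3 or 5, any AngII library, or AngII+E1 library 1, 3 or 4. Rescaling by the median ratio moved the share of higher calls from 74.5% to 47.9% in AngII against Sham and from 49.4% to 63.1% in AngII+E1 against AngII, and moved the median difference of all genes from 0.11 to 0.00 and from -0.11 to -0.03.

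Libraries with the same number were not shown to be paired: deviations of same-numbered libraries correlated over 0.1 in 4 of 15 pairs (-0.41 to 0.52). With the replicate number as a block, 109, 433 and 1 genes were called. The differences of the 4 members cannot change under this block, since each number occurs once in every group, so nothing is read from their staying the same. The precision of low genes cannot be judged, since read depth is unknown.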
